A study of Mus musculus with 31 samples.

Results

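Gene expression in the medial prefrontal cortex (mPFC) was compared between 2 inbred mouse strains, DBA2/J (DBA) and C57BL/6J (C57), after repeated cross-fostering (RCF) in the first days of life. The 8 arrays whose titles name this region and treatment, 4 of each strain, were taken from the 31 arrays of the series, and every difference is DBA minus C57 on the log2 scale. All animals were female, and the labels give their age as 12 weeks and no transgene. RCF litters were handed each day to a new dam, from postnatal day 1 to day 4, and stayed with adoptive mother number 4 until weaning on day 28. Control litters were lifted out daily and put back with their own mother. Groups from control litters, and from the nucleus accumbens (NAc) of RCF mice, are used below to set the strain difference beside the same difference in other samples. The labels also give a later age of treatment, in weeks, which differs from the days in the protocol. No more than 2 animals came from 1 cage or litter, and the labels do not say which mPFC and NAc samples came from 1 animal.

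The mPFC is a cortical area that regulates planning, emotional responses and the release of dopamine in the NAc, a ventral part of the striatum. Mice of an inbred strain are near-identical in their genome, so that DBA and C57 differ at many fixed variants at once, and they are a classic pair for studies of stress, reward and drug response. RCF is used as a model of an unstable early environment.

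Each array lists 55681 probes that are not controls, of which 30067 are in the table of log2 values used here. In that table all arrays share a 75th percentile of 11.43. Taking for each gene its brightest probe left 22469 features, 13719 of them genes with an official name. The scanner files and the table disagree on the array of 29 of the 31 samples. Arrays were named by the table, whose columns carry the sample names. A strain score (Glo1 and Gabra2 minus Gpnmb) placed 2 of 31 arrays against their strain label under those names and a tissue score placed 5 against their tissue label, each split at its midpoint, against 16 and 15 with the scanner files as listed. The results rest on this choice: of 143 named genes called under the table's names, 7 were called the same way with the scanner files as listed and 42 were called the opposite way. With the files as listed the test of the difference between regions called 0 features and that of the difference between treatments 3024, against 3254 and 0 here. Under the table's names, all C57 mPFC arrays lay on 1 slide and all DBA mPFC arrays on another, so that strain and slide cannot be told apart within the mPFC. Between 63.5% and 80.2% of probes were well above background on the 4 C57 arrays and between 73.6% and 79.7% on the 4 DBA arrays. DBA RCF arrays 1 and 3 differed by 2.26 times the noise between spots of 1 probe, against 5.13 to 7.27 times for the other pairs of that group. They were averaged and counted as 1 sample, which left 3 DBA and 4 C57 samples. The labels do not say that samples of a group are separate animals, so the spread between samples may be technical. Each standard error (SE) and p-value rests on a spread pooled over the 27 samples of all 8 groups in both regions. It is thus not the spread of the 3 DBA and 4 C57 samples alone. The pooled samples include arrays that scored against their tissue or strain label, and their part in the SE of single genes was not tested. For Rbbp9, described below, the standard deviation was 0.10 in DBA and 0.22 in C57, beside an SE of 1.25.

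The labelled tissue was checked with markers of cortical and striatal neurons, on the scanner scale where 0 is the array's 75th percentile. Slc17a7, the vesicular glutamate transporter of cortical projection neurons, lay at 3.35, 3.30 and 3.50 in the DBA samples, at 2.54, 2.23 and 2.52 in C57 RCF 2, 3 and 4, and at -0.42 in C57 RCF 1. Drd1, the dopamine D1 receptor of striatal neurons, lay at 2.36 in C57 RCF 1, against -1.49, 0.13 and -0.66 in the other C57 samples and -1.27, -1.58 and -1.94 in DBA. The mean of the striatal markers minus the mean of the cortical markers was 3.28 in C57 RCF 1, -0.93 in C57 RCF 2, 0.28 in C57 RCF 3 and 0.17 in C57 RCF 4, and it lay between -1.48 and -1.26 in the 4 DBA arrays. All 4 C57 arrays thus scored above all 4 DBA arrays, and C57 RCF 1 lay within the range of the DBA NAc arrays after RCF, 2.73 to 4.54. Among the NAc arrays after RCF, C57 NAc RCF 1 lay at -0.65, against 4.19 to 4.56 in the other 3 of its group. Both arrays thus score against their labels, and whether the labels of these 2 were exchanged or the tissue was mixed was not tested. The total count of strain differences, the list counts and the calls of named genes are therefore given without C57 RCF 1 too where that changes them. Other results use all samples unless stated. In tissue RNA, fewer cells of a type and less RNA per cell cannot be told apart.

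**Figure D1:**
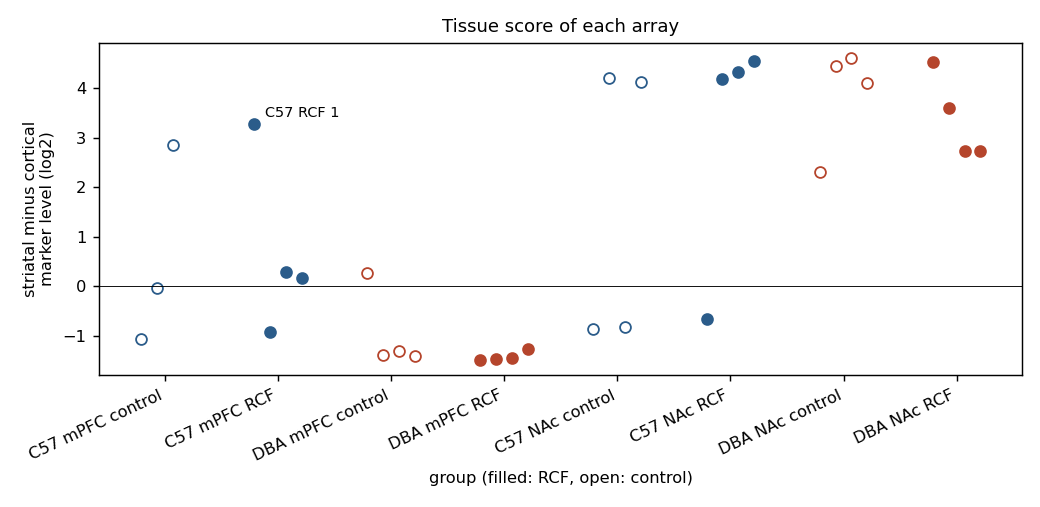
Tissue score of each of the 31 arrays, the mean log2 level of the striatal markers minus that of the cortical markers, by group; each point is 1 array. C57 RCF 1 of the mPFC lies at 3.28, the other C57 RCF mPFC arrays between -0.93 and 0.28, and the DBA RCF mPFC arrays between -1.48 and -1.26.

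Strain differences were widespread. Of the 22469 features, 7562 (33.7%) passed limma's test at an adjusted p under 0.05, 4682 (20.8%) higher and 2880 (12.8%) lower in DBA. Of these, 1264 higher (5.63%) and 789 lower (3.51%) features differed at least 2-fold, together 9.14% of those tested. Without C57 RCF 1 the test called 6517 features (29%), 4214 higher (18.8%) and 2303 lower (10.2%), and 6312 of them were among the 7562. The excess of higher over lower calls depended on the scaling: 61.9% of calls were higher in DBA, against 52.4% after quantile normalization and 51.4% after a normexp background correction with quantile normalization. The median difference over all features was 0.046. In what follows, a call that was lost in any of the 7 fits that leave out 1 sample in turn is given with the samples concerned and the highest adjusted p of those fits. Where other probes of a gene gave the opposite sign, their values stand beside it.

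Among the 12 named genes with the largest excess in DBA, Syt10, a synaptotagmin that serves as a calcium sensor for vesicle release, led. It lay at 10.37, 10.67 and 11.46 in the DBA samples and at 6.43, 6.15, 6.11 and 7.51 in C57, a difference of 4.28 ± 0.57 (SE; adjusted p = 1.43e-05). The lowest DBA sample was above the highest C57 sample. The groups did not overlap for any of these 12 genes, as the rule for choosing them required (43.1% of all features were so separated).

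Hddc3, a metal-dependent hydrolase, lay at 10.54 to 10.62 in DBA and at 7.20 to 7.42 in C57 (3.26 ± 0.50, adjusted p = 5.74e-05). Pam, the enzyme that amidates many neuropeptides, lay at 11.85 to 12.27 in DBA against 8.62 to 9.22 in C57. Serpina3n, a secreted protease inhibitor known as an astrocyte marker of inflammation, lay at 10.02, 9.87 and 10.08 in DBA against 6.50, 7.44, 6.97 and 7.06 in C57 (3.00 ± 0.53, adjusted p = 0.000201). Each of these 3 genes was also higher in DBA in the NAc, by 2.50, 1.69 and 2.23.

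Ier5, an immediate early gene, differed between the regions. It lay at 10.44, 9.94 and 10.34 in the DBA mPFC and at 6.82 to 8.25 in C57, a difference of 2.79 ± 0.47 (adjusted p = 0.000121). In the NAc its strain difference was -0.59 (adjusted p = 0.411), and the mPFC value exceeded it by 3.38 ± 0.63 (adjusted p = 0.00087). Robo3, an axon guidance receptor, rose by 2.63 ± 0.75 in the mPFC (adjusted p = 0.00934) and gave -0.17 in the NAc, and here the difference between regions did not pass (2.80 ± 1.02, adjusted p = 0.0698).

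The others among the 12 were Sfi1, a centrosome protein (3.01), the pseudogene Pisd-ps3 (2.98), Ocel1 (2.75), the secreted ribonuclease Rnase4 (2.53), Map1b and Myl1. The brighter probe of Map1b, a microtubule-associated protein of growing axons, gave 2.88 ± 0.48, while the other probe gave -0.59 ± 0.40. Myl1, a muscle myosin light chain, gave 3.68 ± 1.27 (adjusted p = 0.0284), a call that did not hold without C57 RCF 1, C57 RCF 3, DBA RCF 1 and 3, DBA RCF 2 or DBA RCF 4, with adjusted p up to 0.0812.

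Of the 12 largest deficits, the leading ones were larger in size than any excess. Probe sequences were not at hand, so whether a strain variant under a probe changed its signal was not tested for any gene. Acyp2, Pttg1, Slc4a10 and Cox17 were each read by 1 probe. Rbbp9, a serine hydrolase that binds the retinoblastoma protein, lay at 4.47, 4.30 and 4.49 in DBA and at 11.03, 10.80, 10.99 and 11.33 in C57 (-6.62 ± 1.25, adjusted p = 0.000364). A dimmer probe of Rbbp9 gave 0.96 ± 0.15, so the gene as a whole has no settled direction. Acyp2, an acylphosphatase, lay at 5.11, 5.31 and 6.19 in DBA against 11.17 to 11.45 in C57 (-5.76 ± 0.99, adjusted p = 0.000157).

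Pttg1, the securin that keeps separase inactive until anaphase, lay at 9.89, 9.77 and 9.39 in DBA against 13.73, 14.24, 14.24 and 13.80 in C57 (-4.32 ± 0.72, adjusted p = 0.000122). Slc4a10, a neuronal bicarbonate transporter, lay at 8.27 to 8.39 in DBA and 11.82 to 12.46 in C57 (-3.89 ± 0.71, adjusted p = 0.000266). Cox17, the copper chaperone of cytochrome c oxidase, had the smallest SE of the 12, with 5.06 to 5.29 in DBA and 8.07 to 8.40 in C57 (-3.08 ± 0.16). In the DBA NAc the same probes fell too: they fell by 6.36 for Rbbp9, fell by 5.88 for Acyp2, fell by 3.87 for Pttg1, fell by 3.94 for Slc4a10 and fell by 3.10 for Cox17.

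Wfdc18, a small secreted WAP domain protein, fell by 3.64 ± 0.49 in the DBA mPFC, against -0.86 in the NAc, and the difference between regions passed (-2.77 ± 0.67, adjusted p = 0.00658). Iqcf4 differed by -3.30 and Nat8f4 by -3.33. The brightest probe of Col25a1, a brain collagen, gave -3.23 ± 0.67, while its other probes gave 0.35 ± 0.27, 0.14 ± 0.22 and -0.27 ± 0.30. For Ankfy1, an endosomal protein, 1 probe gave -3.09 ± 0.56 and another 0.71 ± 0.23.

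Six3, a transcription factor of the ventral forebrain, was also among the 12, and it was highest in C57 RCF 1, the array with the highest tissue score of these groups. Six3 lay at 10.63 in C57 RCF 1, at 5.72, 7.68 and 6.85 in the others, and at 4.86, 4.51 and 4.00 in DBA (-3.26 ± 1.20, adjusted p = 0.0391). Without C57 RCF 1 it was -2.29 (adjusted p = 0.151, the highest of those fits), and its call was lost without C57 RCF 1, C57 RCF 3, DBA RCF 1 and 3, DBA RCF 2 or DBA RCF 4. With the tissue score as a covariate, the difference of Six3 was -1.33 (adjusted p = 0.0337).

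**Figure D2:**
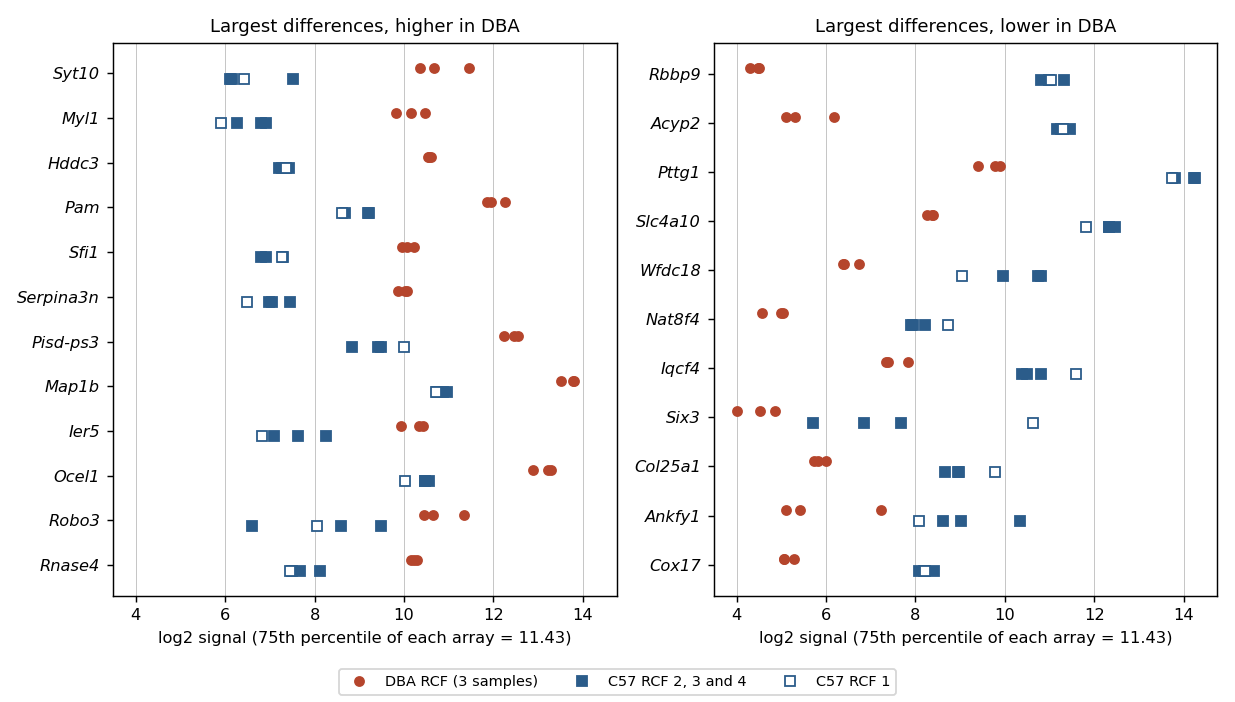
Level of named genes with the largest differences in each direction in each RCF mPFC sample, as log2 signal; each point is 1 sample, marked by strain, with C57 RCF 1 marked apart. The DBA and C57 samples do not overlap in any row, and Six3 spreads most in C57, with C57 RCF 1 at 10.63.

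Genes silent in 1 strain are mostly absent from the log2 table, in which 30060 of 30067 probes exceeded background clearly on every one of the 31 arrays. For 2954 further named genes the scanner signal was used; 38.5% of the 7696 features outside the table passed. Of the features that passed, 87.8% were higher in DBA. Of the named genes, 175 were well above background in DBA mPFC arrays and in no C57 array, and 86 in C57 and no DBA array. The direction of these genes follows from how they were found. The test called 119 of the 175 and 27 of the 86, of which 7 and 11 were called the same way in the NAc. The share of probes well above background differed between arrays, and its part in these counts was not tested. Where no array of 1 strain was well above background, the fold is a lower bound, set against the dimmest signal that was well above background on those arrays.

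Trim12a, a TRIM family antiviral protein, lay at -1.29, -1.30, -1.27 and -0.81 on the 4 C57 arrays and was not well above background on any DBA array, at least 35.75-fold lower in DBA (adjusted p = 0.000186; at least 38.44-fold in the NAc). Gpnmb, a melanosome and macrophage glycoprotein for which DBA mice carry a well-known loss-of-function variant, was at least 6.21-fold lower (adjusted p = 0.00126; at least 4.11-fold in the NAc). Abhd3, a phospholipase, was at least 7.04-fold lower, Lrriq4 at least 5.13-fold and Cacng1, a calcium channel gamma subunit, at least 4.34-fold. The adjusted p of Cacng1 was 0.0503 without DBA RCF 1 and 3.

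Lhx8, Six3os1 and Ido1 were well above background on 3 of the 4 C57 arrays and on no DBA array. Lhx8, a transcription factor of cholinergic and other ventral forebrain neurons, lay at 2.22 in C57 RCF 1, at -5.46, -0.97 and -4.15 in the other C57 samples, and at -8.07, -8.49 and -8.27 in DBA, at least 18.86-fold lower in DBA (adjusted p = 0.0137, and 0.0566 without C57 RCF 1). Six3os1, the RNA transcribed opposite Six3, was at least 11.44-fold lower, a call lost without C57 RCF 1, DBA RCF 2 or DBA RCF 4 (adjusted p up to 0.0785). Ido1, a tryptophan-degrading enzyme among the striatal markers, was at least 6.00-fold lower, a call lost in 5 of the 7 fits (all but those without C57 RCF 2 or C57 RCF 4, adjusted p up to 0.156). C57 RCF 1 was the highest sample for all 3 genes, and the bounds moved with it: without it they were 6.96-fold for Lhx8, 4.69-fold for Six3os1 and 2.84-fold for Ido1. Without C57 RCF 2 they were 41.1-fold, 32.3-fold and 11.7-fold, and without C57 RCF 4 that of Lhx8 was 30.3-fold.

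In the other direction, Serpina1d, an alpha-1-antitrypsin gene with several near-identical copies, lay at -2.04, -2.27 and -1.75 in DBA and was at least 16.32-fold higher there (adjusted p = 0.000441). In the NAc its difference was 5.05, with 1 C57 array well above background. Slc25a31, a mitochondrial ADP/ATP carrier, was at least 6.78-fold higher. Tspan11, a tetraspanin, was at least 4.91-fold higher and Sh2d4a, an SH2 domain adaptor, at least 4.02-fold. Adgrg5, an adhesion receptor, was at least 3.03-fold higher, the vomeronasal receptor Vmn2r89 at least 2.87-fold and Clca2 at least 2.74-fold. In the NAc Slc25a31 was at least 4.74-fold higher. The NAc differences of Tspan11 (1.73), Sh2d4a (1.37), Adgrg5 (1.93), Vmn2r89 (0.028) and Clca2 (0.42) did not pass. For Vmn2r89 limma's test of the difference between regions passed (2.59 ± 0.61, adjusted p = 0.00564).

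Genes known to differ between these strains were looked at next. Glo1 and Gabra2, like Gpnmb above, made up the strain score of the arrays. They thus give no separate check of how the arrays were named. Alad, an early enzyme of heme synthesis, which DBA mice carry in extra copies, lay at 11.97, 11.91 and 12.13 in DBA and at 9.44 to 9.81 in C57 (2.34 ± 0.36, adjusted p = 6.03e-05). Another probe gave 1.09 ± 0.18. Glo1, the glyoxalase that is also duplicated in DBA, lay at 13.62 to 13.79 against 12.51 to 12.78 (1.01 ± 0.25, adjusted p = 0.00306). Both were higher in DBA in the NAc, by 1.71 and 1.32.

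Gabra2, a GABA-A receptor subunit known to be low in C57BL/6J brain, gave 0.85 ± 0.28 (adjusted p = 0.0207) and 1.06 ± 0.30 by another probe. Its call was lost without C57 RCF 2, DBA RCF 1 and 3 or DBA RCF 4 (adjusted p up to 0.0807). Myo5a, the motor protein that carries the dilute coat colour variant in DBA, fell by 0.62 ± 0.15 (adjusted p = 0.00352; NAc -0.61). The complement gene Hc (-0.14 ± 0.20) did not pass. Tyrp1, the brown coat colour gene, gave -1.73 ± 1.12 outside the table and did not pass, and Tyr, the tyrosinase of the pigment list, rose by 1.19 ± 0.19 in the mPFC against -0.43 in the NAc. In the pigment cell list as a whole 1 of 13 genes was higher and 1, Myo5a, lower.

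The mPFC counts in the gene lists that follow are to be read against the 20.8% higher and 12.8% lower of all features. NAc counts are to be read against the 5.01% higher and 11.3% lower of all features there. Of 31 measured interferon-induced genes, 7 were lower and 2 higher in DBA, with a median difference of -0.23. The counts were 6 and 2 without C57 RCF 1, and 8 and 0 after quantile normalization. Trim34a, a TRIM family relative of Trim12a, lay at 4.71, 4.58 and 5.14 in DBA and 6.83, 6.64, 6.48 and 6.93 in C57 (-1.91 ± 0.41, adjusted p = 0.00122). Irgm2, an immunity-related GTPase, lay at 6.90, 6.89 and 7.08 against 8.66, 8.62, 8.30 and 8.73 (-1.62 ± 0.33, adjusted p = 0.000766). The groups did not overlap for either gene.

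Iigp1, a GTPase of the same family as Irgm2, fell by 1.16 ± 0.20 (adjusted p = 0.000131). Igtp, another of that family, gave -1.01 ± 0.30, with adjusted p = 0.0589 without DBA RCF 2. Xaf1, a pro-apoptotic interferon target, gave -1.16 ± 0.37, with adjusted p = 0.0762 without DBA RCF 4. In the NAc Trim34a fell by 1.61, Xaf1 fell by 1.16 and Iigp1 fell by 0.70, while the NAc values of Irgm2 (-0.87, adjusted p = 0.0575) and Igtp (-0.71, adjusted p = 0.079) did not pass. Ifi35 and Rsad2, named after their values had been seen, were higher.

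Interferon acts on many of these genes through the interferon-stimulated response element (ISRE) and the gamma-activated site (GAS). The promoters of Trim34a, Irgm2 and Igtp are shown because they hold the core letters of these elements; each runs from 250 bases before to 50 after the start site, as RefSeq gives it for assembly GRCm38.p6. Of the 7 lower genes 6 have an entry, and 5 of these hold the ISRE core GAAANNGAAA and 3 the GAS core TTCNNNGAA on either strand, against 3.44% and 8.3% of 32851 promoters of the same length. Capitals mark the matches, which do not overlap. A match describes the letters and is not a tested site, and the list was drawn up from known interferon targets. The Trim34a promoter lies at chr7:104244207-104244506 on the plus strand, that of Irgm2 at chr11:58214727-58215026 on the plus strand and that of Igtp at chr11:58199306-58199605 on the plus strand.
Trim34a: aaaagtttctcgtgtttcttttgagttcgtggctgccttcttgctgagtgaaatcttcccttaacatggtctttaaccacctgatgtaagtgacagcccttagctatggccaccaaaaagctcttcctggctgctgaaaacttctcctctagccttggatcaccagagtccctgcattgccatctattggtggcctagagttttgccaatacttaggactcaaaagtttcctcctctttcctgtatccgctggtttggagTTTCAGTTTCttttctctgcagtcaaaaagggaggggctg
Irgm2: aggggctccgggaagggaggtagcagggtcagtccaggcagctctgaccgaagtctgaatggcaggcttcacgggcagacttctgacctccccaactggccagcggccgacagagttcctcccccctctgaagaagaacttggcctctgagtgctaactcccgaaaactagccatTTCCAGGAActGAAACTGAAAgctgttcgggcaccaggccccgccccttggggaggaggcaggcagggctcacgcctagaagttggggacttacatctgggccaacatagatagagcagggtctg
Igtp: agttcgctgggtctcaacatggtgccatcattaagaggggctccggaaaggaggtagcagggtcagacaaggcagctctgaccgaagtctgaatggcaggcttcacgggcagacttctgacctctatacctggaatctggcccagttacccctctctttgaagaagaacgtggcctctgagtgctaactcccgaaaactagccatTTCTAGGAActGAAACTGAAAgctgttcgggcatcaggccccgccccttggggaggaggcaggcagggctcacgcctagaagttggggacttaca
Irgm2 and Igtp hold a GAS core next to an ISRE core, and Trim34a holds an ISRE core that reads on the minus strand. The promoters of Irgm2 and Igtp share long stretches of sequence around these cores, so their matches are not separate observations.

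Of 19 measured genes of MHC class I and antigen processing, which present peptides to T cells, 6 were higher and 3 lower, with 8 higher and 0 lower in the NAc. The mPFC counts were 6 higher and 2 lower without C57 RCF 1, and 4 and 4 after quantile normalization. H2-Q5 rose by 0.97 ± 0.23 (adjusted p = 0.00242). H2-Q10 gave 0.79 ± 0.24, a call lost without DBA RCF 1 and 3 or DBA RCF 4 (adjusted p up to 0.12). H2-T23 gave 0.68 ± 0.20, lost without DBA RCF 4 (adjusted p up to 0.083). H2-Q2 gave 0.66 ± 0.21, lost without DBA RCF 1 and 3 or DBA RCF 4 (adjusted p up to 0.106), and H2-Q7 0.62 ± 0.21, lost without C57 RCF 3, DBA RCF 1 and 3 or DBA RCF 4 (adjusted p up to 0.147). These genes include near-identical copies, so that a probe may read several of them. The lower genes were H2-K1, H2-Q4 and Tap2, named after their values had been seen. H2-DMa, which loads peptides on MHC class II, rose by 1.36 ± 0.25 (adjusted p = 0.000279), and H2-DMb1, its partner, gave -0.71 ± 0.27, a call lost in 6 of the 7 fits (all but that without C57 RCF 4, adjusted p up to 0.145).

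Complement and its regulators gave 1 higher and 2 lower of 14. Cd59a, which blocks the membrane attack complex, rose by 1.60 ± 0.34 (adjusted p = 0.00102; NAc 1.44). C1qc, a chain of the initiating C1q complex made by microglia, lay at 10.61, 10.53 and 10.82 in DBA against 11.65 to 11.83 in C57 (-1.11 ± 0.20, adjusted p = 0.000262; NAc -1.07). The regulator Cr1l gave -0.48 ± 0.14, a call lost without DBA RCF 1 and 3 or DBA RCF 2 (adjusted p up to 0.0664). Among 15 serpins, Serpina3n and Serpina1e (2.00 ± 0.37) were higher, and Serpinh1, the collagen chaperone, fell by 1.49 ± 0.29 (adjusted p = 0.000443).

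Enzymes of glutathione and peroxide metabolism gave 13 higher and 4 lower members of 47, with a median of -0.025. The counts were 11 and 2 without C57 RCF 1, and 8 and 2 in the NAc. The glutathione transferases Gstm4 and Gstm3 rose by 1.17 ± 0.26 and 0.92 ± 0.23. The brighter probe of catalase (Cat), which breaks down hydrogen peroxide, gave -0.89 ± 0.27 and a dimmer one 0.96 ± 0.36. Mgst3, a microsomal relative, gave 1.13 ± 0.42, a call lost without C57 RCF 1, DBA RCF 1 and 3, DBA RCF 2 or DBA RCF 4 (adjusted p up to 0.144).

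In heme synthesis 5 of 15 genes were higher and 2 lower, or 5 and 1 without C57 RCF 1. Beside Alad, Fech, the enzyme that inserts the iron, rose by 0.34 ± 0.084. The heme-degrading Hmox1 rose by 0.58 ± 0.17, with adjusted p = 0.0534 after quantile normalization, and the mitochondrial transporter Abcb10 gave -0.53 ± 0.17, a call lost in 5 of the 7 fits (all but those without C57 RCF 2 or C57 RCF 3, adjusted p up to 0.0666).

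Receptors for GABA and glutamate are described by single subunits. Of 14 GABA-A receptor subunits, 3 (21.4%, near the 20.8% of all features) were higher and 0 lower in the mPFC. In the NAc 2 were higher and 2 lower. Gabrb2 lay at 14.29, 14.22 and 14.07 in DBA and 13.37, 13.67, 13.58 and 12.85 in C57 (0.83 ± 0.18, adjusted p = 0.00136). Gabrb1 lay at 12.39 to 12.41 against 11.47 to 11.86 (0.72 ± 0.13, adjusted p = 0.000195). The other subunit that was higher was Gabra2. Of 13 genes for GABA synthesis, transport and GABA-B receptors, the inhibitory scaffold gene Gphn passed, at -0.40 ± 0.13, with adjusted p = 0.0634 without DBA RCF 2.

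Of 17 ionotropic glutamate receptor genes 3 were higher and 2 lower, together 29.4%, beside 33.7% of all features. Gria1, an AMPA receptor subunit, fell by 0.76 ± 0.19 in DBA (adjusted p = 0.004), and the delta subunit Grid1 rose by 0.94 ± 0.23 (adjusted p = 0.00307). Grik2, a kainate receptor subunit, gave 1.07 ± 0.33, a call lost without C57 RCF 2 or DBA RCF 2 (adjusted p up to 0.0576). Grin1, the obligatory NMDA receptor subunit, gave 0.54 ± 0.17, lost without DBA RCF 1 and 3 or DBA RCF 4 (adjusted p up to 0.0688), and Grin2c gave -0.42 ± 0.15, lost without C57 RCF 4, DBA RCF 1 and 3 or DBA RCF 2 (adjusted p up to 0.116).

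Of 10 metabotropic glutamate receptor genes and their scaffolds, 3 were higher and 1 lower. The strain differences of Grm2, Grm4 and Homer3 differed between the regions. Grm2, a presynaptic receptor, lay at 10.80, 10.68 and 10.96 in DBA against 9.51, 10.25, 9.88 and 8.87 in C57 (1.18 ± 0.29, adjusted p = 0.00317), with -0.51 in the NAc. The brighter probe of Grm4, of the same presynaptic kind, gave 1.39 ± 0.27 (NAc -0.085), and a dimmer one -1.15 ± 0.64. The scaffold Homer3 gave 0.66 ± 0.18, with adjusted p = 0.0576 without DBA RCF 4.

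Of 14 dopamine system genes 3 were lower and 0 higher, with a median of -0.89. Leaving out C57 RCF 1 gave 2 lower and 0 higher, with a median of -0.71. Maob, the monoamine oxidase of glia, fell by 0.71 ± 0.17 (adjusted p = 0.00268). The dopamine transporter Slc6a3 lay at 5.25, 4.77 and 6.23 in DBA and 5.74, 6.17, 7.01 and 8.49 in C57, with overlap (-1.43 ± 0.50), a call lost without C57 RCF 3, C57 RCF 4, DBA RCF 1 and 3 or DBA RCF 2 (adjusted p up to 0.156). Ddc, the decarboxylase of dopamine and serotonin synthesis, gave -1.38 ± 0.52, and -1.08 without C57 RCF 1 (adjusted p = 0.138), a call lost in 5 of the 7 fits (all but those without C57 RCF 2 or C57 RCF 4, adjusted p up to 0.152). The tissue score was higher in all 4 C57 arrays. With it as a covariate, Ddc gave -0.60 (adjusted p = 0.1), Slc6a3 -1.43 (adjusted p = 0.0457) and Maob -0.86 (adjusted p = 0.000233).

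Serotonin and noradrenaline receptors gave 2 higher and 2 lower of 13. Htr1f lay at 7.31, 7.36 and 7.14 in DBA and 8.58, 8.80, 9.33 and 8.94 in C57 (-1.64 ± 0.32, adjusted p = 0.000538; NAc -1.69). Adra2b, an alpha-2 adrenergic receptor, lay at 9.18 to 9.36 in DBA against 9.86 to 10.91 in C57 (-1.24 ± 0.20, adjusted p = 9.03e-05; NAc -1.22). Neither gene's groups overlapped. Htr1a, the inhibitory serotonin receptor, rose by 1.21 ± 0.30 (adjusted p = 0.00395; NAc 0.15). Htr6 gave 1.06 ± 0.33, a call lost without C57 RCF 4 or DBA RCF 1 and 3 (adjusted p up to 0.0641).

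In the opioid and endocannabinoid list 2 of 16 genes were higher and 1 lower, or 0 and 1 without C57 RCF 1. Cnr2, the cannabinoid receptor best known from immune cells, lay at 11.68 to 11.92 in DBA and 13.34 to 13.63 in C57 (-1.69 ± 0.13, adjusted p = 1.75e-08). It fell by 0.80 in the NAc, and the difference between regions passed (-0.89 ± 0.18, adjusted p = 0.00187). Faah, which degrades anandamide, gave 1.48 ± 0.48, a call lost without C57 RCF 1, DBA RCF 1 and 3, DBA RCF 2 or DBA RCF 4 (adjusted p up to 0.0821), and Daglb, which makes the endocannabinoid 2-AG, 0.54 ± 0.20, lost in 5 of the 7 fits (all but those without C57 RCF 2 or C57 RCF 3, adjusted p up to 0.146).

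Voltage-gated channels carry the currents of the action potential and of transmitter release. Of 32 measured sodium and calcium channel genes, 10 (31.2%) were higher and 0 lower in the mPFC, beside 20.8% and 12.8% of all features, with a median of 0.20. The counts were 9 and 0 without C57 RCF 1, 8 and 0 after quantile normalization and 6 and 0 after normexp. In the NAc 1 was higher and 2 were lower. Cacng3, an auxiliary subunit that also accompanies AMPA receptors, lay at 11.80, 11.99 and 11.97 in DBA and 9.64, 10.86, 10.21 and 10.22 in C57 (1.69 ± 0.26, adjusted p = 6.11e-05; NAc -0.35).

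The auxiliary calcium channel subunits Cacnb1 and Cacng7 rose by 1.41 ± 0.30 and 1.32 ± 0.21. Cacnb2, another, gave 1.16 ± 0.23 by its brighter probe and -0.85 ± 0.25 by a dimmer one. For Cacng3 and these 3 genes the mPFC value exceeded that in the NAc, by 1.04 (Cacnb2) to 2.04 (Cacng3). Of 38 potassium channel genes, 8 (21.1%, a share near that of all features) were higher and 3 lower. The counts were 7 and 2 without C57 RCF 1, and 0 and 2 in the NAc. Kcnip2, a calcium-binding partner of A-type channels, lay at 9.98, 9.69 and 10.04 in DBA and 8.49, 8.01, 7.38 and 7.58 in C57 (2.04 ± 0.47, adjusted p = 0.0021; NAc -0.36).

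The Kv1 channels Kcna2 and Kcna3 rose by 1.50 ± 0.21 and 1.49 ± 0.17. Kcnh1 and Kcnab2 rose by 1.48 ± 0.30 and 1.38 ± 0.35, with NAc values of 0.075 and -0.26. C57 RCF 1, the array with the highest tissue score here, was the lowest C57 sample for Cacng3 and the highest for Kcnip2. Without it Cacng3 still gave 1.49 and Kcnip2 2.25.

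In the circadian clock list, 3 of 22 genes were higher and 4 lower, together 31.8%, near the 33.7% of all features. The counts were 3 and 3 without C57 RCF 1, and 0 and 0 in the NAc. Nr1d1 (REV-ERB alpha), a repressor of the loop, lay at 10.74, 10.39 and 10.95 in DBA against 9.10 to 9.77 in C57 (1.35 ± 0.26, adjusted p = 0.000452; NAc 0.043). Npas2, a partner of BMAL1, lay at 7.56, 7.99 and 7.81 against 6.06 to 6.48 (1.53 ± 0.42, adjusted p = 0.00728; NAc -0.47). Cry1, a repressor, fell by 1.28 ± 0.31 (adjusted p = 0.00283), and Clock fell by 0.58 ± 0.16. Per3 gave 1.03 ± 0.35, a call lost in 5 of the 7 fits (all but those without C57 RCF 1 or C57 RCF 2, adjusted p up to 0.0833).

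Of 43 chromatin enzymes 7 were higher and 8 lower, together 34.9%, near the 33.7% of all features. Leaving out C57 RCF 1 gave 6 higher and 6 lower. Hdac1 fell by 0.93 ± 0.16 by its brightest probe, and its other probes gave -0.94 ± 0.32 and -1.40 ± 0.31. Hdac3 fell by 0.73 ± 0.16, and Kdm5a, a histone demethylase, fell by 0.71 ± 0.12. Hdac8 rose by 1.01 ± 0.21. The DNA methyltransferase Dnmt3b gave 0.72 ± 0.15 by its brighter probe and -0.29 ± 0.21 by the other.

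Clustered protocadherins, cell-surface identity molecules of neurons, gave 7 higher and 2 lower of 25, with a median of 0.17, and of -0.039 after normexp. Leaving out C57 RCF 1 gave 8 higher and 1 lower. Pcdhb3 rose by 1.07 ± 0.21, Pcdhb9 by 0.99 ± 0.20, Pcdha11 by 0.93 ± 0.22 and Pcdha8 by 0.83 ± 0.18. Pcdha4 gave 0.84 ± 0.25, with adjusted p = 0.0586 without DBA RCF 1 and 3. Members of these clusters are alike in sequence. The lower genes were Pcdhb18 and Pcdhb20, named after their values had been seen.

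Of 24 glucocorticoid receptors and targets, 1 was higher and 1 lower, together 8.33% beside 33.7% of all features, and without C57 RCF 1 the counts were 0 and 0. Crhbp, which binds corticotropin-releasing hormone, lay at 10.57, 10.70 and 10.61 in DBA against 7.69, 9.20, 9.07 and 10.25 in C57 (1.57 ± 0.51). Its call was lost without C57 RCF 1, DBA RCF 2 or DBA RCF 4 (adjusted p up to 0.0869), with 1.12 (adjusted p = 0.0869) without C57 RCF 1. The metallothionein Mt1 gave -0.58 ± 0.21, a call lost in 6 of the 7 fits (all but that without C57 RCF 4, adjusted p up to 0.144), and 0.18 ± 0.24 by another probe.

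Of 22 immediate early genes, Ier5 was higher and Klf4 (-0.43 ± 0.15) lower, the latter lost in 5 of the 7 fits (all but those without C57 RCF 2 or C57 RCF 3, adjusted p up to 0.141). Of 28 heat shock genes, 3 were lower and 1 higher, or 2 and 0 without C57 RCF 1. Hspa4 fell by 0.83 ± 0.14 and Hspd1 fell by 0.48 ± 0.089. Hspb8 gave -1.20 ± 0.46, a call lost in 5 of the 7 fits (all but those without C57 RCF 4 or DBA RCF 4, adjusted p up to 0.205), and Hspa12a 0.78 ± 0.26, lost without C57 RCF 1, DBA RCF 1 and 3 or DBA RCF 4 (adjusted p up to 0.0771).

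Of 76 cytosolic ribosomal protein genes, 5 were lower and 0 higher, or 2 and 0 without C57 RCF 1. After quantile normalization, however, 8 were lower and 9 higher. Rps3 fell by 1.06 ± 0.21 by its brighter probe (adjusted p = 0.000607), and another gave -0.018 ± 0.24. Of 76 oxidative phosphorylation subunits, 7 were higher and 9 lower, or 7 and 6 without C57 RCF 1. Ndufa10 was higher by 0.74 ± 0.12 and Atp5d by 0.69 ± 0.13. The brightest probe of Cox7c gave -0.74 ± 0.15, and its others 0.53 ± 0.14 and -0.34 ± 0.19. Of the 3 measured Xlr genes, none passed.

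**Figure D3:**
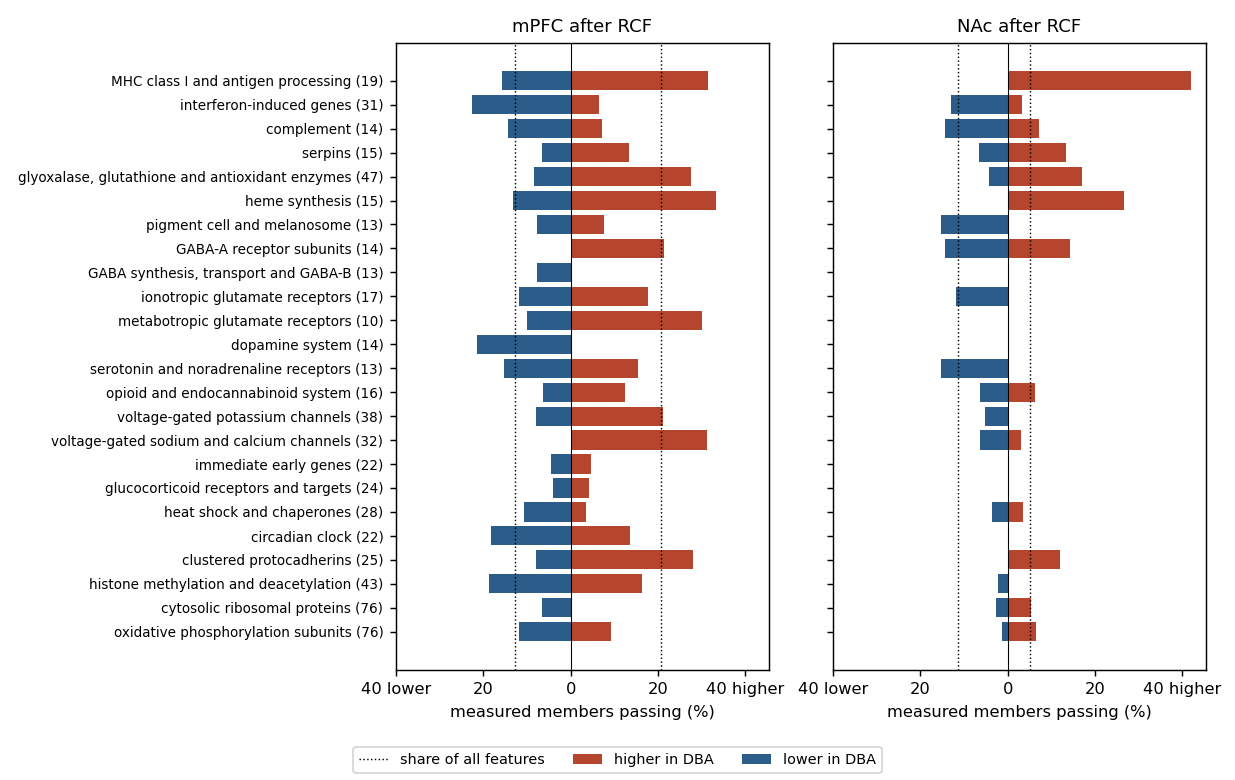
Share of the measured members of each list that passed the test, higher or lower in DBA, in the mPFC and the NAc after RCF, in percent; numbers in brackets are measured members and dotted lines the shares over all features. Sodium and calcium channels have 10 of 32 members higher and 0 lower in the mPFC, and glucocorticoid targets have 1 each way.

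Cell type markers were examined as whole lists. Of 22 oligodendrocyte genes, 7 were lower and 1 higher in the DBA mPFC, with a median of -0.65. Without C57 RCF 1 the counts were 3 and 1 and the median -0.52, and in the NAc 2 were lower, with a median of 0.13. Mal, a myelin proteolipid, lay at 12.24, 11.44 and 11.70 in DBA and 14.98, 13.51, 13.99 and 14.28 in C57 (-2.40 ± 0.52, adjusted p = 0.00119). Tspan2 fell by 1.20 ± 0.35. Mobp gave -1.94 ± 0.63, a call lost without C57 RCF 1, C57 RCF 4, DBA RCF 2 or DBA RCF 4 (adjusted p up to 0.101), Cldn11 -1.16 ± 0.41, lost without C57 RCF 1, C57 RCF 4, DBA RCF 2 or DBA RCF 4 (adjusted p up to 0.165), and Trf -1.21 ± 0.46, lost in 5 of the 7 fits (all but those without C57 RCF 2 or C57 RCF 3, adjusted p up to 0.183). Mbp, the major myelin basic protein, gave 0.013 ± 0.27 on the scanner scale. The mean level of the markers was 1.77 to 2.54 in the C57 arrays, highest in C57 RCF 1, and 1.22 to 1.73 in the DBA arrays. The higher member, Cldn14, is named after its values had been seen.

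Of 22 striatal markers in the table, Meis2 passed, at -1.34 ± 0.41, and the list's median was -1.30, or -0.71 without C57 RCF 1. The call of Meis2 was lost without DBA RCF 1 and 3 or DBA RCF 2 (adjusted p up to 0.055). Of 18 cortical excitatory markers, Mef2c (1.60 ± 0.58) and Cux2 (0.95 ± 0.34) were higher, and the call of Mef2c was lost in 5 of the 7 fits (all but those without C57 RCF 2 or C57 RCF 3, adjusted p up to 0.129) and that of Cux2 in 5 of the 7 fits (all but those without C57 RCF 2 or C57 RCF 3, adjusted p up to 0.111), with adjusted p = 0.129 and 0.0803 without C57 RCF 1. Astrocyte markers gave 3 lower of 20, led by the glutamine synthetase Glul (-0.76 ± 0.18, adjusted p = 0.00248; NAc -0.82) and the glutamate transporter Slc1a3 (-0.51 ± 0.14, adjusted p = 0.00655). Mlc1 gave -0.49 ± 0.16, lost without C57 RCF 1, DBA RCF 1 and 3 or DBA RCF 2 (adjusted p up to 0.0853).

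With the tissue score as a covariate, 22 named genes lost their call, with adjusted p from 0.0592 to 0.169. Those described here were Myl1, Mef2c, Cux2, Tac2, Mobp, Trf, Cldn11, Mlc1, H2-DMb1, Mgst3, Abcb10, Grin1, Ddc, Daglb, Klf4, Crhbp, Mt1, Hspb8 and Hspa12a.

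Among 20 microglial markers, 4 were lower and 2 higher, together 30%, beside 33.7% of all features. Leaving out C57 RCF 1 gave 4 lower and 0 higher. Cx3cr1, the fractalkine receptor, gave -0.54 ± 0.12 by its brightest probe (adjusted p = 0.00131), and its others gave 0.55 ± 0.18 and -0.55 ± 0.12. Fcrls gave -1.10 ± 0.37, a call lost without DBA RCF 1 and 3 or DBA RCF 2 (adjusted p up to 0.0703), and -1.58 in the NAc. P2ry13 (0.48 ± 0.15) lost its call without C57 RCF 1, DBA RCF 2 or DBA RCF 4 (adjusted p up to 0.0739), and Ly86 (0.56 ± 0.22) in 6 of the 7 fits (all but that without C57 RCF 4, adjusted p up to 0.13).

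Of 22 vessel markers, 3 were higher and 5 lower, together 36.4%, beside 33.7% of all features. Pecam1, an endothelial adhesion molecule, rose by 0.96 ± 0.19 (adjusted p = 0.000452) and Emcn by 0.76 ± 0.17. Tek, the angiopoietin receptor, gave 0.89 ± 0.23, with adjusted p = 0.0594 without DBA RCF 4, and the smooth muscle gene Tagln -0.89 ± 0.26, with adjusted p = 0.0828 without DBA RCF 2. The pericyte gene Pdgfrb gave -0.61 ± 0.21, lost without C57 RCF 4, DBA RCF 1 and 3 or DBA RCF 2 (adjusted p up to 0.0937). Of 19 interneuron markers, Tac2 (0.50 ± 0.19) passed, lost in 5 of the 7 fits (all but those without C57 RCF 2 or DBA RCF 1 and 3, adjusted p up to 0.212), and of 8 choroid plexus markers Prlr (1.05 ± 0.39), lost in 7 of the 7 fits (adjusted p up to 0.13).

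The strain difference was then set beside that in the NAc of RCF mice, whose arrays lay on 2 other slides. There 3675 features passed (16.4%), 1125 higher (5.01%) and 2550 lower (11.3%). Of the 4682 features higher in the DBA mPFC, 690 (14.7%) were also called higher in the NAc and 455 (9.72%) were called lower. Of the 2880 lower in the mPFC, 946 (32.8%) were called lower in the NAc and 11 (0.382%) higher. Among differences of at least 2-fold, 254 of 1264 higher features (20.1%) and 468 of 789 lower features (59.3%) were called the same way. Without C57 NAc RCF 1, the array with a cortical tissue score, 3099 features passed in the NAc, 858 higher and 2241 lower. The features higher in the mPFC were then called higher in the NAc in 619 of 4713 (13.1%) and lower in 374, and those lower in the mPFC were called lower in 908 of 2936 (30.9%).

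**Figure D4:**
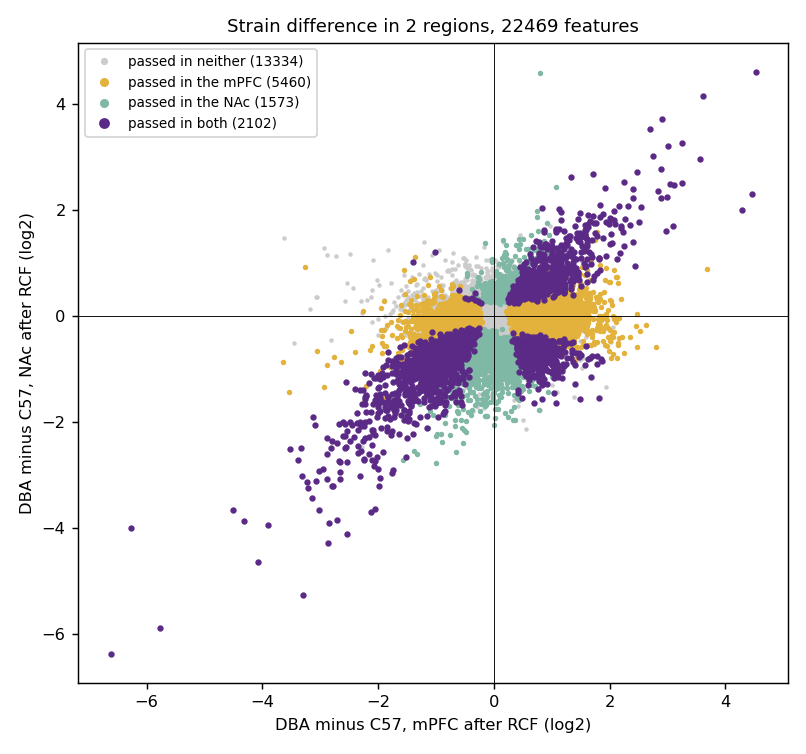
Strain difference of each of 22469 features in the mPFC and the NAc after RCF, both DBA minus C57 in log2; colours show where a feature passed. In all, 2102 features passed in both regions, 5460 in the mPFC alone and 1573 in the NAc alone.

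A test of the difference between the regions called 3254 features (14.5%), with 2770 (12.3%) where the mPFC difference was the more positive and 484 (2.15%) where it was the more negative. After quantile normalization it called 2367, and the share of the first kind fell from 85.1% to 66%. Without C57 NAc RCF 1 it called 2671, of which 273 were the more negative in the mPFC, and without both that array and C57 RCF 1 it called 2357, of which 174 were. The 5 smallest p-values belonged to Olfr901 and Olfr513, olfactory receptors, the vomeronasal receptor Vmn1r195, Tnp1, a sperm chromatin protein, and Ston1, an endocytic adaptor. Olfr901 lay at 7.05, 7.22 and 7.38 in DBA and 5.58, 4.96, 5.63 and 5.45 in C57 (1.81 ± 0.26, adjusted p = 2.56e-05), with -1.55 in the NAc. Olfr513 and Ston1 gave 1.04 and 1.18 in the mPFC against -1.18 and -1.17 in the NAc, Tnp1 and Vmn1r195 0.85 and 0.74 against -0.72 and -1.14.

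The direction of the strain difference moved with signal. With features split by mean log2 signal into 5 groups of equal size, in the dimmest group 34.4% were higher and 8.37% lower in the DBA mPFC, with a median of 0.34. In the brightest group, 9.48% were higher and 15.8% lower, with a median of -0.093. In the NAc the dimmest group gave 3.27% higher and 21.7% lower, with a median of -0.22. Of 123 olfactory and vomeronasal receptor genes in the table, a group chosen after values had been seen, 67 were higher and 5 lower in the DBA mPFC. The mPFC counts were 63 and 4 without C57 RCF 1, and those in the NAc 2 and 43. The share of probes well above background was higher in all 4 DBA mPFC arrays than in C57 RCF 1, 2 and 3 (70.7%, 63.5% and 69.1%), and lower than in C57 RCF 4 (80.2%); its part in these shifts was not tested.

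**Figure D5:**
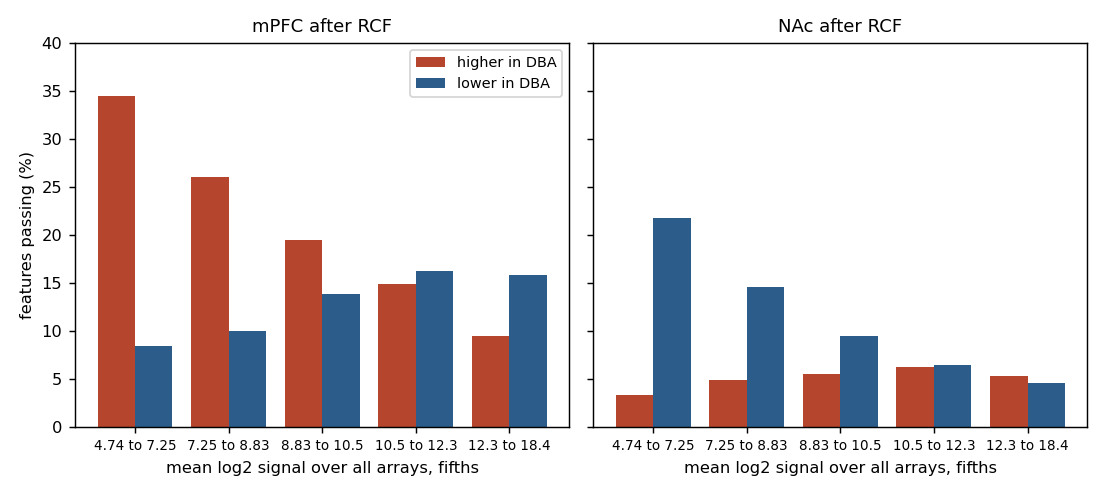
Share of features that passed as higher or lower in DBA, in percent, for 5 equal groups of features ordered by mean log2 signal, in the mPFC and the NAc after RCF. In the dimmest group 34.4% were higher in the mPFC and 21.7% lower in the NAc, and in the brightest group 9.48% and 4.5%.

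Whether RCF changed the strain difference in the mPFC was asked with the control litters, whose arrays share the 2 mPFC slides. In controls 4903 features passed (21.8%), 3139 higher (14%) and 1764 lower (7.85%). Of the 4682 features higher after RCF, 2879 (61.5%) were called higher in controls too, and of the 2880 lower features 1447 (50.2%) were called lower. The control array C57 3 had a striatal tissue score of 2.85, against -1.06 and -0.04 in the other C57 controls. Without it 3270 features passed in controls, 2216 higher and 1054 lower, and the shares called the same way were 45.6% and 32.2%. The limma test of the difference between the strain effects called 0 of 22469 features (0%), and 0 without control C57 3, with 268 at an unadjusted p under 0.05. A value past the threshold after RCF and not in controls is therefore not shown to differ between them. Among the deficits named first above, Rbbp9 gave -4.31 in controls, Acyp2 -4.06, Pttg1 -3.00 and Slc4a10 -2.62, each smaller in size than after RCF. Cox17 gave -3.60, larger in size than after RCF. Which 2 of the 31 arrays scored against their strain label is not given here, and their part in the control counts was not tested.

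The 5 smallest unadjusted p-values of that test were those of Rnf41, Ceacam2, Ccdc47, Pfn1 and Zmynd8, and none passed after adjustment. Rnf41, a ubiquitin ligase, rose by 0.82 ± 0.13 after RCF and gave 0.12 in controls, a difference of 0.71 ± 0.20 (limma, unadjusted p = 0.00154), while another probe gave -0.27 ± 0.21 after RCF. Pfn1, which promotes actin assembly, lay at 11.46, 11.55 and 11.48 in DBA against 9.66, 10.09, 10.19 and 10.08 in C57 after RCF (1.49 ± 0.28) and gave 0.16 in controls, a difference of 1.33 ± 0.41 (limma, unadjusted p = 0.0033). For Ceacam2 and Ccdc47 the differences were -1.16 ± 0.34 and -0.60 ± 0.18, with other probes of Ccdc47 at -0.22 ± 0.20 and 0.29 ± 0.13 after RCF. For Zmynd8 it was -1.06 ± 0.33, and its other probes gave -0.68 ± 0.16 and 0.61 ± 0.10 after RCF.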

How the data were processed

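Total RNA (200 ng, RNA integrity number of at least 8.0) was labelled with Cy3 and hybridised, with 1 dye, to mouse arrays made by Agilent, as the labels' protocols state. The deposited table holds log2 values per probe, made with Feature Extraction and limma per the submitters' processing notes; its scaling brings all arrays to the same 75th percentile, as its values show. The deposited scanner files hold intensity per probe (processed signal, Feature Extraction 10.7.3.1 per the file headers), with marks for signal well above background. Each scanner file was matched to the column of the table it equals; 29 of 31 matched a sample other than the one it is listed with.

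For each gene the probe with the highest mean was used. Groups were compared with limma 3.58.1 in R 4.3.3 (lmFit and eBayes with intensity trend, two-sided, Benjamini-Hochberg over all 22469 features, threshold 0.05), fitted to 8 groups and 27 samples after 4 near-identical pairs of arrays were averaged. Genes outside the table were fitted the same way on log2 scanner signal minus each array's 75th percentile, for probes that exceeded background clearly in 3 or more arrays of some group. The fit was tested on simulated data. The number of arrays limits the precision.

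Named genes were the 12 largest differences in each direction whose groups do not overlap, known strain genes, up to 5 passing members of each list, the 8 largest lower bounds in each direction and the 5 smallest p-values of each interaction; some that met this rule are not reported here, and others are named in the text as chosen after their values were seen. Members and lists were chosen with earlier results of these data known. Gene names came from RefSeq accessions. Alternatives were other scalings, array weights, a tissue covariate, a replicate block, the files as listed and samples left out. Leaving out the control and NAc arrays that score against their tissue, and the bounds without each sample, were chosen after seeing the data.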

Additional observations from a re-analysis of the deposited data

Results flagged for a closer look

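In 10 of 162 named genes 1 C57 RCF mPFC sample lay far from the other 3, a test that chance meets in about 1 in 20 groups of 4, or about 8 of these genes. C57 RCF 4 was that sample for Pdgfrb (9.92), Hdac1 (13.09), Rps3 (14.31), Rps21 (14.80), Rpl7a (15.15) and Vmn1r195 (6.33), as log2 signal, and for Trim12a (-0.81) on the scanner scale. C57 RCF 2 was that sample for Tspan11 (-5.64), Sh2d4a (-5.80) and Lrriq4 (-4.68) on the scanner scale.

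For 35 of 146 named genes (24%) the strain difference after RCF differed between the mPFC and the NAc by limma's test of that difference, and in 27 of them (77.1%) the mPFC value was the more positive. Over all features the shares were 14.5% and 85.1%, and 5 of the 35 (Olfr901, Ston1, Olfr513, Vmn1r195 and Tnp1) were named for the smallest p in this same test. Most other named genes were chosen by their mPFC difference, which enters this test as well. Among features called in the mPFC, the test called 44.9% of those higher and 14.5% of those lower in DBA. The 24% is thus not to be read as an excess. Values here are the mPFC minus the NAc strain difference in log2. Among channel genes these were Kcnip2 2.40, Cacng3 2.04, Kcnab2 1.64, Kcnh1 1.40, Cacnb1 1.39, Kcna3 1.35, Cacng7 1.21, Cacnb2 1.04 and Kcna2 0.93. Among receptor genes and their partners they were Grm2 1.69, Grm4 1.47, Homer3 1.06 and Cnr2 -0.89.

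Among regulators of transcription and chromatin they were Npas2 2.00, Nr1d1 1.31, Hdac8 0.86, Dnmt3b 0.69, Hdac3 -0.64 and Kdm5a -0.77. Among markers of glia and vessels they were Tek 0.96, Pecam1 0.76, Cx3cr1 -0.52, Slc1a3 -0.61 and Tspan2 -1.45. Metabolic and other genes were Ier5 3.38, Tyr 1.62, Pcdha11 1.07, Ndufa10 0.58, Hspd1 -0.37 and Wfdc18 -2.77. Olfr901 3.37, Ston1 2.36, Olfr513 2.22, Vmn1r195 1.88 and Tnp1 1.57 completed the set. They lay in the dimmest of the 5 signal groups, up to a mean log2 signal of 7.25. So did Kcnab2, Pcdha11, Tyr, Tek, Npas2, Cacng7 and Homer3. In that group 34.4% of all features were higher in the DBA mPFC and 21.7% lower in the DBA NAc. Whether the region differences of these genes follow that shift was not tested.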

How the results depend on the processing

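The count of 7562 strain differences moved by over 1.5 times under array weights alone, to 14988, where C57 RCF 3 had a weight of 8.9; other settings gave 6960 to 8967 on the same features, and leaving out 1 sample gave 5460 to 7796. With 1 sample left out, the strain-by-region count ranged from 2183 to 3944 around 3254, the strain-by-treatment count from 0 to 1, and the count outside the table from 2068 to 2797 around 2961. With scanner signal for all detected probes the strain-by-region count was 5019. The tissue score as a covariate gave 7461, of which 6436 were among the 7562, and leaving out 6 samples in doubt 7572. Replicate numbers were not treated as pairs. Deviations from the group means of DBA and C57 RCF mPFC samples with the same number correlated at -0.089, 0.046, 0.22 and 0.26. Samples with unlike numbers were not compared in this way, so these values do not settle whether numbers pair the samples. Pairing of mPFC with NAc samples was not tested. A replicate block on every array gave 8929, 0 and 3994 for the 3 tests, against 8967, 0 and 4055 without it. Under the table's names of the arrays, 104 of 162 named genes kept their direction and side of the threshold in every setting run on them, 55 lost the call in at least 1, 3 gained one in at least 1, and 0 reversed. Calls were lost after quantile normalization for Cux2, Trf, Ly86, P2ry13, Prlr, H2-Q10, Hmox1, Grin2c, Htr6, Daglb and Pcdha4, after normexp for Six3, Cux2, Tac2, Trf, Cldn11, Ly86, H2-Q10, Hmox1, Abcb10, Gphn, Grik2, Ddc, Htr6 and Rpl7a, and with only the groups compared for P2ry13, Tek, Cr1l, Slc6a3, Mt1, Rpsa, Rpl4 and Rpl7a. Signal near background limits dim genes, and slide is not separable from strain.

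With the scanner files as listed, the strain difference gave 8068 features, 3007 of them among the 7562, the strain-by-treatment test 3024 and the strain-by-region test 0. Of 143 called named genes, 48 kept their direction, 7 of these with their call, and 95 reversed. Among genes higher in DBA under the table's names, the log2 differences became Syt10 -1.66, Myl1 -3.68, Pam -0.22, Serpina3n -0.21, Pisd-ps3 -0.012, Ier5 -2.41, Robo3 -3.55, Mef2c -2.50, Cux2 -1.04, P2ry13 -0.20, Pecam1 -0.27, Tek -0.20, Emcn -0.13, Prlr -0.21, H2-Q5 -0.77, H2-Q10 -0.023, H2-T23 -0.032, H2-DMa -0.013, Serpina1e -0.16, Mgst3 -1.03, Hmox1 -0.66, Fech -0.30, Tyr -1.12, Gabrb2 -0.34, Gabrb1 -0.28, Grin1 -0.71, Grm4 -0.81, Grm2 -1.55, Homer3 -0.96, Htr1a -0.62, Faah -1.66, Daglb -0.69, Kcna2 -0.94, Kcna3 -0.42, Kcnh1 -0.92, Kcnab2 -0.64, Cacng3 -1.54, Cacnb1 -1.18, Cacng7 -0.28, Cacnb2 -0.13, Crhbp -1.93, Hspa12a -0.27, Npas2 -0.80, Nr1d1 -0.88, Pcdha11 -0.075, Dnmt3b -0.61, Atp5d -0.25, Rnf41 -0.27, Pfn1 -0.40, Olfr901 -2.39, Tnp1 -1.27, Olfr513 -2.03, Ston1 -2.51 and Vmn1r195 -1.94. Among genes lower in DBA, they became Wfdc18 0.86, Nat8f4 0.49, Six3 5.52, Col25a1 0.034, Ankfy1 0.12, Meis2 0.67, Mal 1.10, Mobp 1.29, Trf 1.28, Tspan2 1.27, Cldn11 1.26, Slc1a3 0.38, Mlc1 0.22, Tagln 0.11, H2-DMb1 0.28, Trim34a 0.074, Irgm2 0.0061, Iigp1 0.60, Igtp 0.16, Cr1l 0.49, Cat 0.68, Abcb10 0.72, Gphn 0.26, Gria1 0.016, Slc6a3 0.82, Ddc 2.34, Cnr2 0.74, Klf4 0.19, Mt1 0.72, Hspb8 2.21, Hspd1 0.18, Cry1 0.71, Hdac1 0.17, Hdac3 0.019, Kdm5a 0.83, Rps3 0.15, Rps21 0.45, Rpsa 0.37, Rpl4 0.17, Rpl7a 0.47 and Ccdc47 0.027. Which naming is right was not tested beyond the strain and tissue scores.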

Other observations

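Further genes of the ventral forebrain, chosen after their values had been seen, were high in C57 RCF 1 on the scanner scale, where 0 is the array's 75th percentile. Isl1, a transcription factor of striatal and cholinergic neurons, lay at 0.91 in C57 RCF 1, -5.82 in C57 RCF 2, -1.91 in C57 RCF 3 and -3.86 in C57 RCF 4, and between -5.62 and -5.14 in DBA. Nkx2-1, which patterns the medial ganglionic eminence, lay at -1.46, -7.21, -4.72 and -5.85 in C57 RCF 1 to 4 and between -8.07 and -7.97 in DBA. Gbx1 lay at -1.27 in C57 RCF 1 and -3.06 in C57 RCF 3, with C57 RCF 2 and 4 at -7.02 and -6.89, inside the DBA range of -7.62 to -6.82. Gbx1 was well above background on 2 C57 arrays and Nkx2-1 on 3, and neither on any DBA array.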
